A study of Mus musculus with 15 samples.

Results

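Genes of the Toll-like receptor (TLR), NF-kB, MAP kinase and PI3K signalling pathways were examined in mouse bone marrow-derived macrophages (BMDMs), which are grown from femoral marrow progenitors in M-CSF. Members were the rows of the count table whose symbol begins with Map, Pik3, Akt, Nfkb, Traf, Irak, Ikbk, Tab, Ripk, Plc or Prkc, together with Rel, Rela, Relb, Myd88, Tirap, Ticam1, Tbk1, Syk and Btk where present. Nfkbia was left out of the members and is counted below among the feedback inhibitors. This rule used no measured value, and it found 25 of the 754 genes. RNA was counted on a NanoString nCounter panel of myeloid immune genes, a method that tallies single colour-coded probes bound to their transcripts, with no amplification step.

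The 15 libraries formed 4 groups. In the MPLA group (n = 4), BMDMs were kept for 4 days in 20 ng/mL of monophosphoryl lipid A, a TLR4 agonist, as M1 standards. In the IL4 group (n = 4), they were kept for 4 days in 20 ng/mL of IL-4 as M2 standards. The other two groups were IL-4-exposed BMDMs that also received, for 1 h, 1 µg of nanoparticles loaded either with IRF5 mRNA (IRF5-NP, libraries 1, 2 and 4) or with eGFP mRNA as a control (eGFP-NP, libraries 1 to 4). These amounts are those of the labels, and the methods of the study give another nanoparticle amount. By those methods, the IRF5 particles also carried mRNA of IKKβ, a kinase of the NF-kB pathway, and part eGFP mRNA as a reporter. Cells with the brightest eGFP were sorted and cultured again, in a lower dose of IL-4, before their RNA was taken, whereas the methods give no such sort for the MPLA and IL4 groups. IRF5-NP therefore differed from eGFP-NP by 2 coding mRNAs and by a smaller share of eGFP mRNA, the signal on which cells were sorted. From IL4 it differed by particle uptake, sorting, the later IL-4 dose and the added time in culture as well. Strain, age and sex of the mice and the number of animals behind each group are not given in the labels. A legend of the study calls its samples biologically independent, without tying them to these libraries, and the spread between libraries may be technical in part.

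Libraries within groups were uneven. Total gene counts ranged from 266169 in IRF5-NP 4 to 1784833 in MPLA 1. The counts of eGFP-NP 1 and eGFP-NP 2 could not be told from 2 draws of one library (chi-square per degree of freedom 1.09, p = 0.0817 over genes). Their sum was used as 1 sample, so that eGFP-NP had 3 samples and the whole set 14. On the same measure 4 more pairs came close to identity. It was 2.56 for MPLA 1 and 4, 1.98 for MPLA 2 and 3, 1.63 for IRF5-NP 1 and 2, and 1.36 for eGFP-NP 3 and 4, against 41.4 to 1250 for the other pairs within groups. These differed beyond sampling noise and were kept as separate samples. The 4 MPLA libraries thus formed 2 nearly identical pairs, so the SD and p-values that rest on them may understate the spread between independent cultures. As to cell identity, the mean of 13 pan-macrophage genes lay between 10.1 and 12.0 log2 CPM (the log2 of counts scaled to a common library size) in all 15 libraries. The mean of 7 stromal genes, among them the collagen genes Col1a2 and Col3a1, was 12.3 to 12.4 in MPLA. It was 10.5, 11.1, 4.17 and 9.47 in IL4 libraries 1 to 4. It was 3.98, 3.94 and 10.7 in IRF5-NP libraries 1, 2 and 4, and 4.00, 3.82, 11.3 and 11.3 in eGFP-NP libraries 1 to 4. Stromal transcripts were thus above 9 log2 CPM in 10 libraries and near 4 in the other 5, which cut across the IL4, IRF5-NP and eGFP-NP labels. Means of 2 lymphocyte genes were 3.29 to 5.98 log2 CPM and those of 11 granulocyte and mast cell genes were 3.63 to 4.55. In such bulk RNA, fewer cells of a type and less RNA per cell cannot be told apart.

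TLRs and the receptors for IL-1 signal through the adaptor Myd88 and the ubiquitin ligase Traf6, which feed the IκB kinases and the MAP kinase cascades. NF-kB is held in the cytoplasm by inhibitors of the IκB family until they are phosphorylated, and it induces several of its own regulators, so that the transcripts of such regulators rise when the pathway is active. TLR4 engagement by lipid A derivatives is a standard way to induce inflammatory genes in macrophages, whereas IL-4 acts through another receptor and STAT6. The members grouped by role into 6 receptor-proximal adaptors and kinases (Myd88, Ripk2, Traf1, Traf2, Traf6, Trafd1), 5 genes of the NF-kB module (Ikbke, Map3k14, Nfkb1, Nfkbie, Nfkbiz), 9 genes of the MAP kinase cascade (Map2k1, Map2k2, Map2k3, Map2k4, Map3k4, Mapk11, Mapk12, Mapk13, Mapk14), the PI3K catalytic subunit gene Pik3cg, and 4 further kinases (Btk, Syk, Prkca, Prkci). Each gene was read by its own probe, so levels are compared between libraries and not between genes.

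Promoters of the 2 members that separated eGFP-NP from all other groups are shown first. Nfkbie encodes the NF-kB inhibitor IκBε, and Traf1 encodes a TRAF family adaptor of TNF receptors. Both sequences are the 250 bases before the annotated start, read 5′ to 3′ on the gene's strand, from RefSeq on GRCm38.p6. Capitals mark a match to the κB consensus, the motif that NF-kB dimers recognise, searched on both strands (a palindromic stretch can match on both).
Nfkbie, chr17:45555450-45555699, plus strand: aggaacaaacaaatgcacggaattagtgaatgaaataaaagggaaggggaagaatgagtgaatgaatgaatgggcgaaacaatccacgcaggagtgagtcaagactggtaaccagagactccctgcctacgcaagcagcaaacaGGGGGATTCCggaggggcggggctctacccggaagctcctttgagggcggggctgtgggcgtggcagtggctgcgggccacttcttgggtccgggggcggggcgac
Traf1, chr2:34961773-34962022, minus strand: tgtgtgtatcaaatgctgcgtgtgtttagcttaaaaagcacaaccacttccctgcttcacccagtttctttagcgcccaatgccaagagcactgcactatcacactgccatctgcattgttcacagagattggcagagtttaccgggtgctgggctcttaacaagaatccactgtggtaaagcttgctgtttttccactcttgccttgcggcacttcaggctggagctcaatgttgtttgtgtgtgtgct
The match in the Nfkbie promoter, GGGGGATTCC, began 106 bases before the start, and the Traf1 window held none. RefSeq gave 27 promoters for 22 of the 25 members, and 2 of these 27 (7.41%), those of Nfkbie and Prkca, held a match, compared with 2382 of 32851 promoters of all genes (7.25%). The promoters of Nfkb1, Nfkbiz and Ripk2 were not analysed here. These are matches of letters in a fixed window and describe no binding.

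Of the 25 members, 15 had their highest group mean in MPLA. The number was 12 after scaling to housekeeping genes and 15 with a smaller prior count. For 5 of them, Ikbke, Nfkbie, Nfkbiz, Traf1 and Traf2, every MPLA library lay above every library of the 3 other groups. Nfkbie and Traf1 also separated at the lower end, with every eGFP-NP library below every other library. How many of all 754 genes follow each pattern above was not counted, so these counts are not read as particular to the members. Between pairs of groups, 22.1% of all genes were higher in MPLA than in IL4 without overlap. Against MPLA, 30.5% were lower in IRF5-NP and 23.6% in eGFP-NP. Myd88, the common TLR adaptor, had close group means, at 8.43 ± 0.03 log2 CPM in MPLA, 8.46 ± 0.25 in IL4, 8.42 ± 0.23 in IRF5-NP and 8.46 ± 0.30 in eGFP-NP (mean ± SD, n = 4, 4, 3 and 3). Under housekeeping scaling the same means were less close, at 8.34, 8.59, 8.55 and 8.27. The number of members above background, set at 2 SD over the mean of 8 negative control probes, was 25 in each MPLA library and 20 to 25 in the others. All 25 members were tested in every comparison, as no filter on low counts was used.

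**Figure D1:**
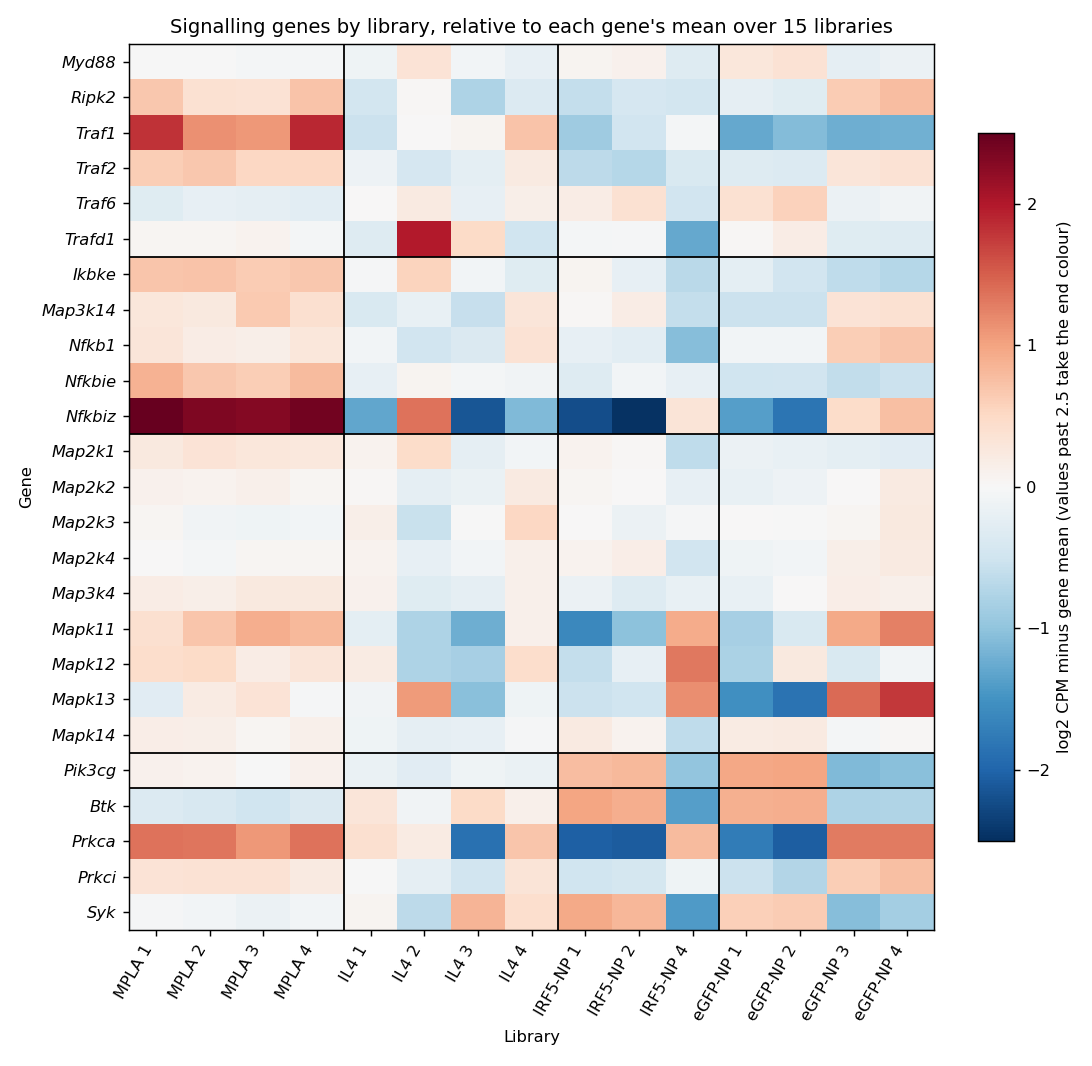
Heat map of the 25 signalling genes (rows, grouped by role) in the 15 libraries (columns, grouped by treatment). Colour is log2 CPM minus the mean of that gene over the 15 libraries, with red higher and blue lower. The 4 MPLA libraries are red for Traf1, Nfkbie and Nfkbiz, while IRF5-NP 4, eGFP-NP 3 and eGFP-NP 4 part from their own groups for Btk, Syk, Pik3cg and Prkca.

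MPLA was set against IL4 to ask which signalling genes separate the M1 from the M2 standards. Of the 25 members, 6 rose with MPLA and 1 fell at an adjusted p under 0.05 (edgeR's quasi-likelihood test with Benjamini-Hochberg adjustment over all 754 genes). The 6 that rose were Nfkbiz, Traf1, Mapk11, Ripk2, Nfkbie and Traf2, and the gene that fell was Btk. Among all genes tested, 12.2% were called higher and 14.2% were called lower. Without overlap between the groups, 11 members were higher in MPLA, against 22.1% of all genes, and 1 was lower, against 15.1%. The median log2 difference of the members was 0.28, beside -0.05 over all genes.

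The NF-kB module gave the widest difference. Nfkbiz encodes IκBζ, an inducible nuclear regulator that is needed for part of the NF-kB response. Its raw counts were 1739, 1397, 1523 and 1640 in MPLA libraries 1 to 4 and 73, 575, 37 and 121 in IL4 libraries 1 to 4. The groups did not overlap, but IL4 2 stood far above the other IL4 libraries. Nfkbiz was 5.87-fold higher in MPLA, a log2 difference of 2.55 ± 0.74 (SE, adjusted p = 0.0364 by edgeR). This difference was 3.86 without IL4 2 and 1.46 with the stromal covariate, and the call was lost in 11 of 17 alternatives. Nfkbie counts were 397, 311, 330 and 372 in MPLA and 111, 164, 114 and 173 in IL4. Scaled levels were 7.57 ± 0.12 and 6.77 ± 0.11 log2 CPM (mean ± SD, n = 4 each), and the log2 difference was 0.84 ± 0.17 (SE, adjusted p = 0.0123 by edgeR). Ikbke, the gene of the IKK-related kinase IKKε, had 617 to 673 counts in MPLA and 242, 444, 217 and 285 in IL4. Its levels did not overlap, yet the log2 difference of 0.63 ± 0.22 missed the threshold (adjusted p = 0.0670 by edgeR). Nfkb1, which encodes p105/p50, lay at 9.90 ± 0.07 log2 CPM in MPLA and 9.53 ± 0.38 in IL4, and these overlapped. Map3k14 encodes the NF-kB-inducing kinase and was not called either, so that 2 of the 5 genes of the module rose, beside 12.2% of all genes.

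Of the receptor-proximal genes, 3 of 6 rose, beside 12.2% of all genes. Traf1 had 552, 313, 332 and 579 counts in MPLA and 63, 114, 90 and 219 in IL4. The lowest MPLA level, 7.45 log2 CPM, was above the highest IL4 level of 7.08, and Traf1 was 2.68-fold higher with MPLA (log2 difference 1.42 ± 0.33 SE, adjusted p = 0.0187 by edgeR). Ripk2, the kinase that relays NOD1 and NOD2 signals, had 871, 640, 700 and 877 counts in MPLA and 234, 401, 174 and 364 in IL4. Its log2 difference was 0.92 ± 0.23 (SE, adjusted p = 0.0225 by edgeR). Traf2, an adaptor of TNF receptor signalling, had 1211 to 1324 counts in MPLA and 467, 465, 395 and 855 in IL4. Traf2 differed by 0.72 ± 0.21 on the log2 scale (SE, adjusted p = 0.0392 by edgeR). Trafd1, a feedback regulator of TLR signalling, spread more in IL4 than anywhere else. Its counts there were 369, 2229, 598 and 468, with IL4 2 far above the rest, beside 725 to 818 in MPLA.

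In the MAP kinase cascade 1 of 9 genes was called higher, near the 12.2% of all genes called higher. This was Mapk11, which encodes p38β, with a log2 difference of 1.22 ± 0.34 (SE, adjusted p = 0.0335 by edgeR). Its counts were low, at 57, 63, 82 and 76 in MPLA and 21, 17, 9 and 40 in IL4, and only 1 of the 4 IL4 libraries was above background. Mapk14, the gene of the main macrophage p38 isoform p38α, lay between 9.73 and 9.84 log2 CPM in MPLA and between 9.46 and 9.65 in IL4 and was not called. Among the other kinases, Btk, a tyrosine kinase of haematopoietic cells, fell with MPLA. Its levels were 8.93 ± 0.07 log2 CPM in MPLA and 9.54 ± 0.24 in IL4 (mean ± SD, n = 4 each), a log2 difference of -0.60 ± 0.19 (SE, adjusted p = 0.0490 by edgeR). The 13 pan-macrophage genes had a median log2 difference of -0.76 in the same comparison, between -2.09 and 2.53, with 3 called lower (Ctss, Fcgr3, Laptm5) and 2 higher (Adgre1, Cd14), and their part in the Btk result was not tested.

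Every one of these 7 calls was lost in some alternative. No member was called without MPLA 1, without MPLA 4, with the nearly identical libraries merged, or with the stromal mean as a covariate, where 74, 81, 20 and 87 of the 754 genes were still called. The log2 differences of the 7 genes kept their sign in all 17 alternatives, and those of Traf1 and Nfkbie were 1.20 and 0.55 at the lowest. With housekeeping scaling, 3 members were called (2 higher, 1 lower), beside 167 genes. MPLA libraries had the highest stromal means of all libraries, 12.34 to 12.44 log2 CPM beside at most 11.32 elsewhere. The covariate thus did not overlap between MPLA and any other group. Its fit cannot separate the stromal part from the treatment in a comparison with MPLA, and that part was not tested.

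**Figure D2:**
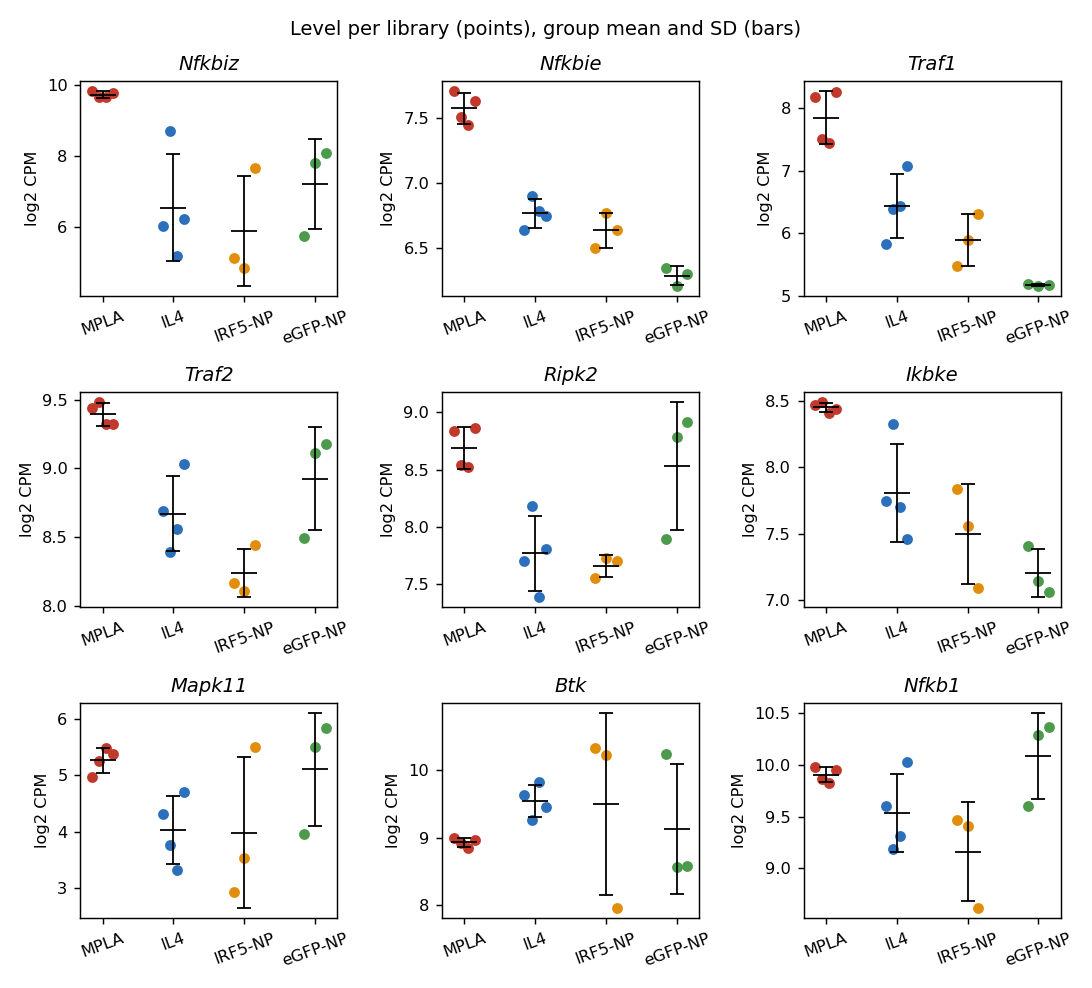
Levels of 9 signalling genes in log2 CPM, with 1 point per library and bars for the group mean and SD (n = 4 for MPLA and IL4, n = 3 for IRF5-NP and eGFP-NP, where eGFP-NP 1 and 2 are 1 point). MPLA stands above all other libraries for Nfkbiz, Nfkbie, Traf1, Traf2 and Ikbke, and the eGFP-NP points for Traf1 lie together at 5.16 to 5.19.

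Genes above and below the members in the pathway moved in both directions between MPLA and IL4. Of 18 upstream receptor genes, 2 rose and 4 fell. Among all genes 12.2% were called higher and 14.2% lower, shares that stand beside the 2 lists below as well. The 2 receptors that rose and the 2 target genes that fell do not exceed these shares. The TLR4 co-receptor gene Cd14 was higher by 2.53 ± 0.28 on the log2 scale (SE, edgeR) and the flagellin receptor gene Tlr5 was called higher, though it was above background in 0 of 4 IL4 libraries. Tlr1, Tlr4 and Tlr8 fell, and the fourth call, Il18r1, was for a probe below background in all 15 libraries. Tlr4, the receptor of MPLA itself, had a log2 difference of -0.68 ± 0.19. Of 7 feedback inhibitors, 4 rose (Dusp1, Dusp6, Nfkbia, Tnfaip3) and 2 fell (Dusp2, Socs1). Nfkbia, the gene of IκBα, differed by 1.17 ± 0.29 and Dusp1, the gene of a MAP kinase phosphatase, by 1.86 ± 0.26. Of 21 target genes, 7 rose and 2 fell. Those that rose were the cytokine and chemokine genes Tnf, Il1a, Il1b, Ccl3, Ccl4, Cxcl1 and Cxcl2, with Cxcl2 the highest of them at 4.28 ± 0.30. The 2 that fell were Il23a, which was below background in all MPLA libraries, and Egr2, a transcription factor gene, the latter with a log2 difference of -3.16 ± 0.73.

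**Figure D3:**
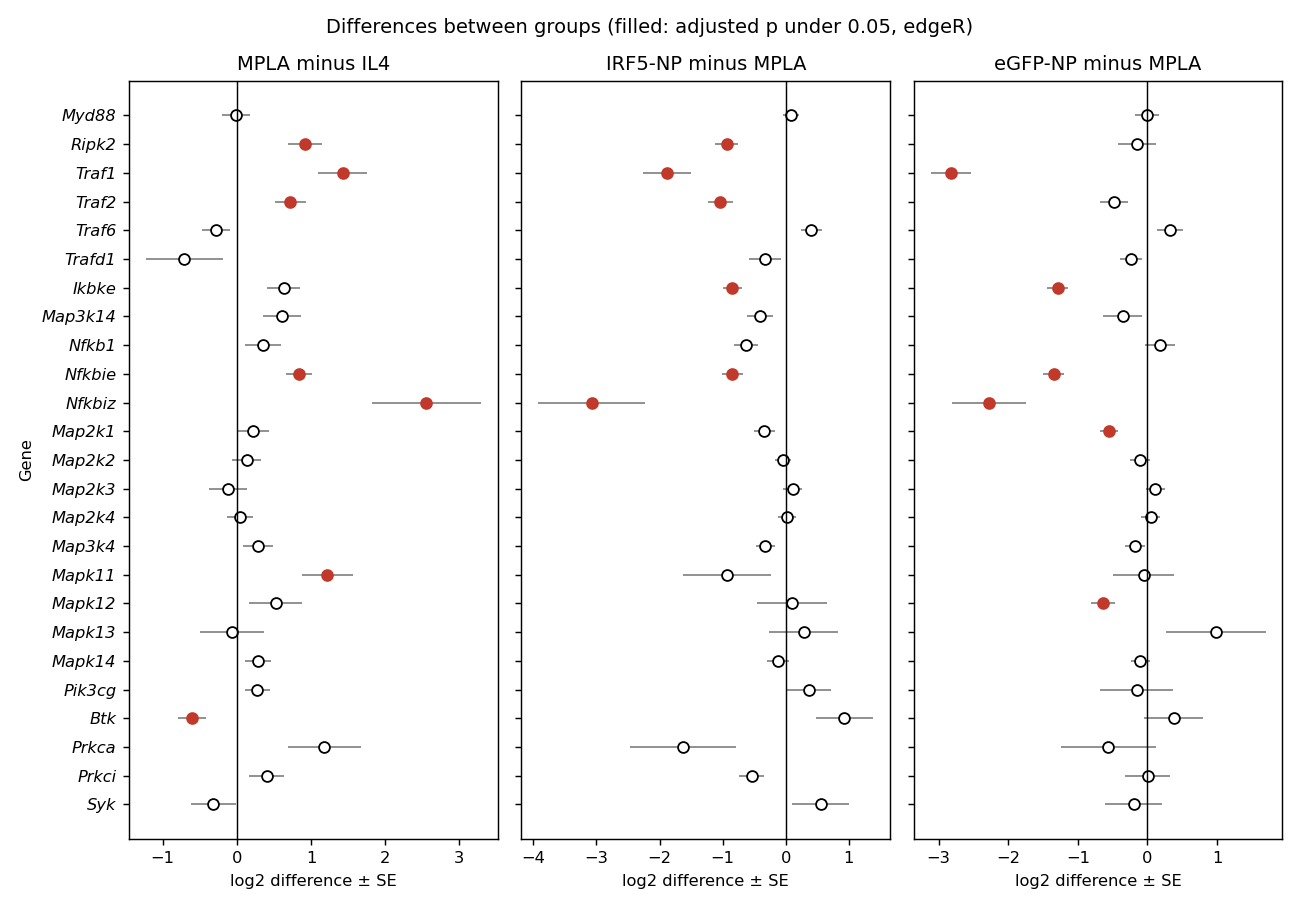
Log2 differences of the 25 members with their SE for MPLA minus IL4 (left), IRF5-NP minus MPLA (middle) and eGFP-NP minus MPLA (right), from edgeR. Filled points have an adjusted p under 0.05, which are 7, 6 and 6 genes, and the 3 panels share the MPLA libraries.

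Both nanoparticle groups were next set against MPLA to see how far they lay from the M1 standard. These comparisons and the one above share the MPLA libraries, so their likeness is not independent support. In IRF5-NP, 6 members were lower than in MPLA and none was higher, beside 12.9% of all genes called lower and 11.5% called higher. Without overlap, 12 members were lower and 0 higher, beside 30.5% and 17.1% of all genes. In eGFP-NP, again 6 were lower and none was higher, beside 12.5% of all genes called lower and 7.16% called higher. Without overlap, 7 were lower and 1 (Traf6) was higher, beside 23.6% and 16.6% of all genes. The median log2 difference of the members was -0.33 in IRF5-NP and -0.15 in eGFP-NP, beside 0.07 and 0.06 over all genes. With a filter on low counts the sign of the members' median turned, to 0.06 in IRF5-NP and 0.07 in eGFP-NP, beside 0.16 and 0.13 over the genes kept.

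Traf1 was lower than in MPLA in both. Its counts were 49, 63 and 36 in IRF5-NP libraries 1, 2 and 4 and 36, 43, 35 and 30 in eGFP-NP libraries 1 to 4. Levels were 5.90 ± 0.42 log2 CPM in IRF5-NP and 5.17 ± 0.02 in eGFP-NP (mean ± SD, n = 3 each), and every library was below the lowest MPLA level of 7.45. The log2 difference from MPLA was -1.88 ± 0.38 in IRF5-NP (SE, adjusted p = 0.0180 by edgeR) and -1.08, no longer called, with the stromal covariate. In all, this IRF5-NP call was lost in 8 of 16 alternatives. In eGFP-NP the difference was -2.82 ± 0.29 (adjusted p = 0.00124 by edgeR), a 7.07-fold lower level.

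The NF-kB inhibitor gene with the motif in its promoter, Nfkbie, followed in both groups. Its levels were 6.64 ± 0.13 log2 CPM in IRF5-NP and 6.28 ± 0.07 in eGFP-NP (mean ± SD, n = 3 each). Differences from MPLA were -0.85 ± 0.17 (adjusted p = 0.0180 by edgeR) and -1.35 ± 0.15 (adjusted p = 0.00177 by edgeR) on the log2 scale. The Nfkbie call was lost in 10 of 16 alternatives in IRF5-NP and in 1 of 17 in eGFP-NP. Ikbke had 257, 203 and 62 counts in IRF5-NP and 201, 177, 143 and 114 in eGFP-NP. After scaling, its log2 differences from MPLA were -0.85 ± 0.15 (adjusted p = 0.0129 by edgeR) and -1.29 ± 0.15 (adjusted p = 0.00182 by edgeR). The Ikbke call was lost in 6 of 16 alternatives in IRF5-NP and in 1 of 17 in eGFP-NP.

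Nfkbiz was lower on average, but with a wide spread. Its levels were 5.13, 4.86 and 7.67 log2 CPM in IRF5-NP libraries 1, 2 and 4, and 5.75, 7.79 and 8.09 in eGFP-NP 1 and 2 (summed), 3 and 4. The higher values were in the libraries with stromal means of 10.7 to 11.3, and the part of this in the result was not tested. Differences from MPLA were -3.08 ± 0.85 (adjusted p = 0.0417 by edgeR) in IRF5-NP and -2.27 ± 0.53 (adjusted p = 0.0277 by edgeR) in eGFP-NP. The first was -4.79 without IRF5-NP 4 and -0.9987 with the stromal covariate, and its call was lost in 10 of 16 alternatives. The second was -1.49 with the stromal covariate, and its call was lost in 9 of 17.

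The remaining calls fell in 1 of the comparisons each, and the difference between the comparisons was not called for any of these genes, as given for the nanoparticle groups below. In IRF5-NP, Traf2 was lower by -1.04 ± 0.20 on the log2 scale (adjusted p = 0.0151 by edgeR) and Ripk2 by -0.94 ± 0.19 (adjusted p = 0.0180 by edgeR). These 2 calls were lost in 8 and 9 of 16 alternatives. In eGFP-NP, Map2k1, which encodes MEK1 of the ERK branch, was lower by -0.56 ± 0.13 (adjusted p = 0.0282 by edgeR), a call lost in 10 of 17 alternatives. Mapk12, the gene of p38γ, was lower there by -0.64 ± 0.17 (adjusted p = 0.0412 by edgeR), a call kept in 1 of 17 alternatives. Its probe was above background in all 4 MPLA libraries, at 40 to 48 counts, and in 0 of 4 eGFP-NP libraries, so this difference is against a group in which it was not detected.

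The 3 genes Traf1, Nfkbie and Ikbke in eGFP-NP against MPLA were the firmest of these results, each keeping its call in 16 of 17 alternatives. Each lost it with the nearly identical libraries merged, which left 2 samples a group. In IRF5-NP against MPLA, IRF5-NP 4, the library with the fewest counts, changed the count of calls. Without it 18 members were called (14 lower, 4 higher), beside 566 of 754 genes. IRF5-NP was then a nearly identical pair, whose own spread was close to counting noise, set against MPLA with 2 such pairs. Between the 2 MPLA pairs the chi-square per degree of freedom was 41.4 to 51.3, so the MPLA spread was wider. Without IRF5-NP 2 or MPLA 1 no member was called, beside 55 and 74 genes. In eGFP-NP against MPLA, leaving out the summed eGFP-NP 1 and 2 gave 13 calls, beside 428 of 754 genes, and again left a single nearly identical pair, in effect 1 sample.

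The pathway lists gave calls in both directions here too. Of the receptors, 4 were lower than in MPLA in IRF5-NP and the same 4 were lower in eGFP-NP (Cd14, Cd40, Tlr2, Tlr9), where Il18r1 was also called higher with all its counts below background. Tlr2, the receptor for bacterial lipoproteins, differed by -1.52 ± 0.38 on the log2 scale in IRF5-NP and -2.42 ± 0.17 in eGFP-NP (SE, edgeR). Of the 7 feedback inhibitors, Dusp1 and Tnfaip3 were lower in IRF5-NP, and Dusp1, Nfkbia and Socs3 in eGFP-NP. Nfkbia differed by -1.93 ± 0.16 in eGFP-NP. Of the 21 targets, 6 were lower and 2 higher in IRF5-NP, and 8 were lower and 1 higher in eGFP-NP. One of the 2 higher in IRF5-NP, Il23a, was below background in both groups. These counts stand beside the shares of all genes given above for each comparison. The chemokine gene Ccl4 differed by -2.12 ± 0.40 in IRF5-NP and -2.49 ± 0.31 in eGFP-NP, and Egr2 by 3.62 ± 0.71 and 3.23 ± 0.53.

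By edgeR, no member was called in either nanoparticle group against the IL4 standard. This comparison also takes in the sort, the lower later IL-4 dose and the added culture time, so it does not isolate the particles. IRF5-NP against IL4 gave 0 of 25 members and 0 of 754 genes called by edgeR. At an unadjusted p under 0.05, 0 members and 7.03% of all genes passed, and DESeq2 called 0 members and 19 genes. No member separated the groups without overlap, beside 4.38% of all genes higher and 4.38% lower. The smallest p was that of Trafd1, with 443, 430 and 76 counts in IRF5-NP beside the 2229 counts of IL4 2 given above, and a log2 difference of -1.25 ± 0.71 (SE). Without IL4 2 this difference was -0.31. The next smallest p were those of Traf2, with a log2 difference of -0.56 ± 0.34, and Traf1, with -0.69 ± 0.45. Median log2 differences were -0.24 over the members and -0.14 over all genes. Without IL4 2 these medians were -0.06 and 0.04, and with a filter on low counts -0.04 and -0.06.

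eGFP-NP against IL4 likewise gave 0 of 25 members and 0 of 754 genes called by edgeR. At an unadjusted p under 0.05 there was 1 member, Traf1, beside 11.1% of all genes, and Traf1 was the 1 member among 53 genes that DESeq2 called. Its difference was -1.51 ± 0.41 on the log2 scale (SE, adjusted p = 0.285 by edgeR), with the highest eGFP-NP level at 5.19 and the lowest IL4 level at 5.83 log2 CPM. Traf1, Ikbke and Nfkbie were lower in eGFP-NP without overlap, beside 6.9% of all genes. The log2 difference was -0.77 ± 0.35 for Ikbke and -0.62 ± 0.31 for Nfkbie, neither of which passed the test.

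IRF5-NP was set against eGFP-NP to compare particles with the IRF5 and IKKβ messages to eGFP particles, which also carried a larger share of eGFP mRNA. No member and no gene was called by edgeR, and DESeq2 called 0 members and 7 genes. At an unadjusted p under 0.05 there was 1 member, Nfkb1, beside 5.57% of all genes. Nfkb1 levels were 9.46, 9.41 and 8.61 log2 CPM in IRF5-NP libraries 1, 2 and 4 and 9.60, 10.29 and 10.36 in the eGFP-NP samples. The log2 difference was -0.91 ± 0.33 (SE, adjusted p = 0.83 by edgeR). Without overlap, Traf1 and Nfkbie were higher in IRF5-NP, beside 7.96% of all genes, and 4 members were lower, beside 6.76%. Traf1 differed by 0.85 ± 0.39 and Ripk2 by -0.90 ± 0.37 on the log2 scale, each with an adjusted p of 0.83 by edgeR.

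Libraries with the same number in these 2 groups deviated together from their group means, so they were also compared in pairs. Libraries of different number were not checked in this way, so a pairing by number is not established. The pairs of number 1 and number 2 hold nearly identical libraries and amount to little more than 1 comparison. IRF5-NP was higher in all 3 pairs for 3 members, Ikbke, Nfkbie and Traf1, beside 17.2% of all genes. It was lower in all 3 pairs for 10 members, Map2k3, Mapk11, Myd88, Nfkb1, Nfkbiz, Prkca, Ripk2, Traf2, Traf6 and Trafd1, beside 25.5% of all genes. These counts went by sign with no tolerance, and Map2k3 in pair 1 (-0.00022 log2) and Prkca in pair 2 (-0.0074, on 16 and 17 counts below background) were in effect equal. Mapk11 was below background in every IRF5-NP library and in eGFP-NP 1 and 2, so its signs in pairs 1 and 2 rest on undetected counts. With each library centred on its housekeeping genes, an alternative chosen after seeing the data, 9 members were higher in all 3 pairs, beside 36.9% of all genes, and 2 were lower, Nfkb1 and Traf2, beside 10.3%. Map2k3 was among the 9 and so changed sides, and Ikbke, Nfkbie and Traf1 were higher under both scalings. With the number as a block, no member was called. The blocked log2 difference of Nfkbiz was -0.71 ± 0.22 (SE, adjusted p = 0.306 by edgeR) and that of Traf1 was 0.67 ± 0.24 (adjusted p = 0.354 by edgeR).

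**Figure D4:**
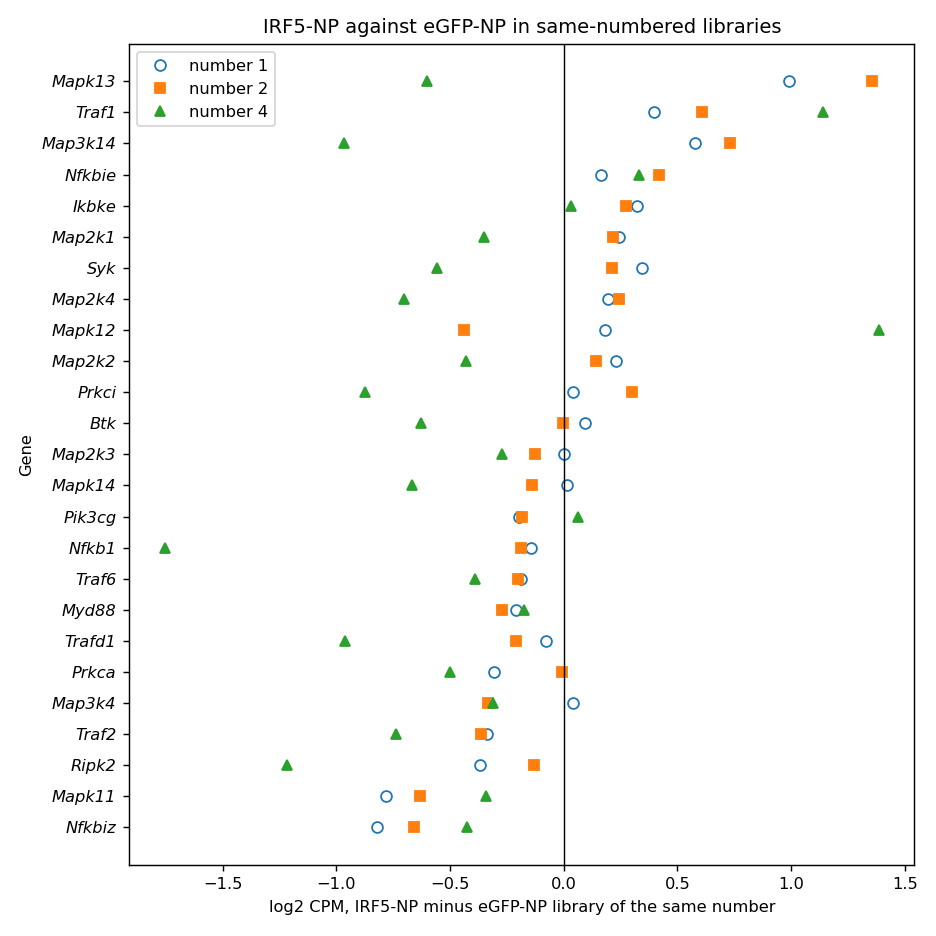
Difference in log2 CPM between the IRF5-NP and the eGFP-NP library of the same number for each of the 25 members, with 1 symbol per number. Nfkbiz and Mapk11 lie left of 0 and Traf1, Nfkbie and Ikbke right of 0 for all 3 numbers on this scaling (with housekeeping scaling, Nfkb1 and Traf2 were the 2 lower in all 3), while the number 4 pair departs from the other pairs for many genes. Mapk11 was below background in both libraries of number 1 and of number 2.

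The kinase genes of haematopoietic cells varied widely within both nanoparticle groups. Syk, a tyrosine kinase downstream of Fc receptors and C-type lectins, had 2586, 2316 and 205 counts in IRF5-NP and 1992, 2110, 581 and 568 in eGFP-NP. After scaling, Syk was 11.16, 11.06 and 8.80 log2 CPM in IRF5-NP libraries 1, 2 and 4. Btk was 10.33, 10.24 and 7.95 log2 CPM in the same libraries, and 10.24, 8.56 and 8.58 in the eGFP-NP samples. Pik3cg, the PI3Kγ catalytic subunit gene, was 9.11, 9.13 and 7.34 log2 CPM in IRF5-NP and 9.31, 7.23 and 7.28 in eGFP-NP. The lower values of all 3 genes were in IRF5-NP 4, eGFP-NP 3 and eGFP-NP 4.

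Prkca, the gene of protein kinase Cα, ran the other way in these libraries. Its counts were 17, 16 and 54 in IRF5-NP, 21, 17, 170 and 144 in eGFP-NP, and 101, 107, 18 and 178 in IL4. Its scaled level was low in the 5 libraries whose stromal mean was near 4 and higher in the other 10. In MPLA it had 274 to 333 counts. Pan-macrophage means were 10.1 to 10.3 log2 CPM in IRF5-NP 4, eGFP-NP 3 and eGFP-NP 4, and 11.9 to 12.0 in the other nanoparticle libraries. The part of the stromal and macrophage transcripts in these levels was not tested.

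The remaining members are given by their range over the 14 samples. The MAP kinase kinase genes ranged from 9.21 to 10.31 log2 CPM for Map2k1, from 9.60 to 10.05 for Map2k2, from 8.73 to 9.81 for Map2k3 and from 8.64 to 9.34 for Map2k4. Map3k4, further up the cascade, ranged from 6.64 to 7.22 and Map3k14 from 4.53 to 5.78. Traf6 ranged from 7.09 to 8.05, and Prkci, the gene of an atypical protein kinase C, from 8.51 to 9.90. Mapk12 was above background in the 4 MPLA libraries and 1 IL4 library alone. Mapk13, the gene of p38δ, exceeded the background in none (0 of 3) of the IRF5-NP libraries and in 2 of 4 eGFP-NP libraries, eGFP-NP 3 and 4, with 82 and 89 counts. Both of these libraries had stromal means of 11.3, and the part of this in the level was not tested.

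**Figure D5:**
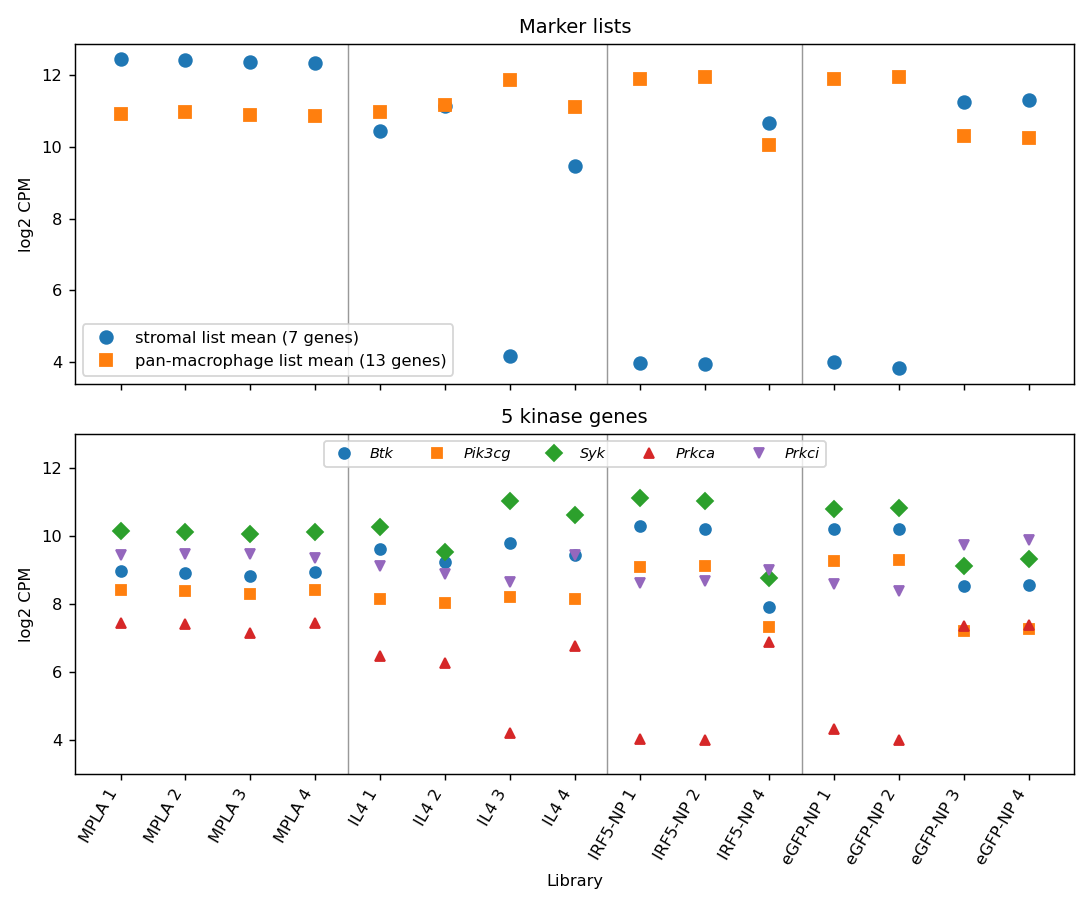
Marker lists and kinase genes by library. Top, mean log2 CPM of 7 stromal and 13 pan-macrophage genes. Bottom, log2 CPM of Btk, Pik3cg, Syk, Prkca and Prkci. Libraries with stromal means near 4 (IL4 3, IRF5-NP 1 and 2, eGFP-NP 1 and 2) have the lowest Prkca points, and IRF5-NP 4, eGFP-NP 3 and eGFP-NP 4 the lowest Btk, Pik3cg and Syk points.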

How the data were processed

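The authors deposited raw nCounter counts, whole numbers for 754 genes with 6 positive and 8 negative control probes, not normalized. Their quality control and housekeeping normalization are named in the methods of the study but were not applied to these counts. Lane and cartridge are not given in the sources used here. Groups and numbers came from the labels. The member rule goes by gene symbols alone, but it and the lists were written with earlier results of these data known. Counts of eGFP-NP 1 and 2 were summed (chi-square, genes with 40 or more counts in the pair).

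Genes were compared with edgeR 4.0.16 (R 4.3.3) by quasi-likelihood tests with TMM scaling, on the 2 groups compared, with no covariate and no filter. Calls needed an adjusted p under 0.05 (Benjamini-Hochberg over 754 genes, two-sided). SE was taken as the absolute log2 difference over √F. Levels are log2 CPM with a prior count of 2. DESeq2 1.42.0, other scalings, a count filter, a fit of all groups, the methods' t-test, merged libraries, a stromal covariate, a replicate block and leave-one-out fits were alternatives. The procedure was tested on simulated data. Counting precision follows totals of 266169 to 1784833 counts per library.

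Same-numbered libraries of IRF5-NP and eGFP-NP deviated from their group means with correlations of 0.823, 0.821 and 0.818 over genes, so their numbers were taken as pairs, a pairing that comes from the data and not from the labels. In the other comparisons these correlations lay between -0.816 and 0.318, and the numbers were not taken as pairs. Named were the core pathway members, every called member, with values for the 5 largest changes in each direction without overlap, and the 3 with the smallest p where none was called. Other members were named afterwards to account for all 25.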

Additional observations from a re-analysis of the deposited data

Results flagged for a closer look

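Within groups of 4, 50 sets of member values were examined for a library far from the others, and 3 were found where chance gives about 2.5 (1 in 20). All 3 were in MPLA, whose libraries lay close together. Map2k3, the gene of a p38-activating kinase, was 9.34 log2 CPM in MPLA 1, with the next value at 9.21. Pik3cg was 8.33 log2 CPM in MPLA 3, with the next value at 8.42. Prkca was 7.18 log2 CPM in MPLA 3, with the next value at 7.43.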

How the results depend on the processing

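With MPLA against IL4, 7 members were called beside 199 genes, and the alternatives gave 11 beside 291 (DESeq2), 3 beside 167 (housekeeping scaling), 4 beside 123 (fit of all groups), 1 beside 21 (the methods' t-test), 0 beside 20 (nearly identical pairs merged) and 0 beside 87 (stromal covariate). Leaving out 1 library gave 0 to 8. With IRF5-NP against MPLA, 6 were called beside 184 genes, and the alternatives gave 11 beside 388 (DESeq2), 0 beside 11 (the methods' t-test), 0 beside 0 (pairs merged) and 14 beside 478 (stromal covariate), with 0 to 18 when 1 library was left out. The count filter there gave 5 calls, of which Map2k3, Myd88 and Traf6 were higher, and 2 were shared with the 6. With eGFP-NP against MPLA, 6 were called beside 148 genes, with 3 beside 50 (fit of all groups), 0 beside 0 (pairs merged) and 16 beside 422 (stromal covariate), and 3 to 13 when 1 library was left out. With eGFP-NP against IL4, 0 were called and DESeq2 gave 1. IRF5-NP against IL4 and against eGFP-NP gave 0 in every alternative run. In comparisons with MPLA the stromal covariate did not overlap between the groups, so its fits cannot separate stromal content from treatment. The causes were not tested.

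Where the numbers were not taken as pairs, the replicate block gave 2 calls for MPLA against IL4, 0 for IRF5-NP against MPLA and 3 for eGFP-NP against MPLA. With housekeeping scaling, added after seeing the data, the members higher in all 3 same-numbered pairs went from 3 to 9 and those lower from 10 to 2. With IRF5-NP and eGFP-NP taken as pairs by number, the replicate block changed no call.

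Housekeeping scaling moved the all-gene median of MPLA minus IL4 from -0.05 to -0.33, and the members' median from 0.28 to 0.05. The share of higher calls among all genes went from 46.2% to 26.9% there, and from 47.3% to 59.6% for IRF5-NP against MPLA. For 29 differences of single members, 325 of 481 alternative values kept direction and side of the threshold, 153 lost the call, 3 gained it and 0 reversed. Some of the 29 were not called to begin with and so could not lose a call. All 153 losses fell on the called differences, so the 325 overstates how often a call was kept. Kept calls ran from 1 of 17 alternatives (Mapk12) to 16 of 17 (Traf1, Nfkbie and Ikbke), all in eGFP-NP against MPLA. Low counts limit Mapk11, Mapk12, Mapk13 and Map3k14, and IRF5-NP 4 limits every value it enters.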
